A study of Homo sapiens with 4 samples.

Results

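The hexosamine pathway was examined through 10 listed genes around GNPDA1: GNPDA1, GNPDA2, GFPT1, GFPT2, GNPNAT1, PGM3, UAP1, NAGK, AMDHD2 and OGT. They were matched by symbol to the annotated probe sets of the array, and 8 of the 10 had 1 probe set each, among 17687 named genes. GFPT2 and PGM3 were not analysed here. RNA came from the human liver cancer lines Li-7, grown in RPMI-1640, and HEP-G2, grown in DMEM, so that line and medium cannot be told apart. Each line received either a mimic of the microRNA miR-4730, transfected with Lipofectamine RNAiMAX at 3 nM and 24 h after seeding, or a negative control oligonucleotide at a dose the labels do not state. Each line and treatment had 1 array, 4 in all, and no replicate array. The set was selected on the measured differences between mimic and control, since GNPDA1 differed while GNPDA2 and the synthesis enzymes moved little, so the mimic responses of these genes are given as a description, without a test.

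The hexosamine pathway diverts phosphorylated fructose from glycolysis and joins it with nitrogen from glutamine and an acetyl group from acetyl-CoA. GFPT1 and GFPT2 catalyse the rate-limiting entry step, GNPNAT1 adds the acetyl group, PGM3 moves the phosphate, and UAP1 couples the sugar to UTP. The product, UDP-N-acetylglucosamine, feeds N-glycans, glycosaminoglycans, GPI anchors and the O-GlcNAc modification that OGT places on nuclear and cytosolic proteins. AMDHD2 and the deaminases GNPDA1 and GNPDA2 run the other way, removing first the acetyl and then the amino group so that the carbon returns to glycolysis, and NAGK rescues N-acetylglucosamine released by the breakdown of glycans.

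The mature sequence of the microRNA that was mimicked is shown because its seed, bases 2 to 8 and here in capitals, is the part that pairs with target transcripts. RefSeq places it at chr17:80419427-80419449 on the + strand of GRCh38.p14.
hsa-miR-4730: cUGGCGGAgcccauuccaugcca
Of 2370 mature human microRNAs in the RefSeq table, 1 carried the seed UGGCGGA, miR-4730 itself. A perfect seed match reads TCCGCCA in a sense DNA strand.

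The promoter windows of the paralogs GNPDA1 and GNPDA2, from 250 bases before to 50 bases after the start, are shown because this pair of deaminases had unlike mimic responses. They are RefSeq sequences of GRCh38.p14, at chr5:142012978-142013277 and chr4:44726507-44726806, both on the - strand. Capitals mark a GC box (GGGCGG) and an E-box (CACGTG), searched on both strands together with the CCAAT box (CCAAT) and the seed match.
GNPDA1: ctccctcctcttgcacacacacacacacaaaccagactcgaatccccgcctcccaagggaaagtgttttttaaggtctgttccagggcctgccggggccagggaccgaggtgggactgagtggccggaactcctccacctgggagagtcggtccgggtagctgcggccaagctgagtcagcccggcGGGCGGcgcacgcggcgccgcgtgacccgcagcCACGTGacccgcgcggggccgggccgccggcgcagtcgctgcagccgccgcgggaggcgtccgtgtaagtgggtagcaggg
GNPDA2: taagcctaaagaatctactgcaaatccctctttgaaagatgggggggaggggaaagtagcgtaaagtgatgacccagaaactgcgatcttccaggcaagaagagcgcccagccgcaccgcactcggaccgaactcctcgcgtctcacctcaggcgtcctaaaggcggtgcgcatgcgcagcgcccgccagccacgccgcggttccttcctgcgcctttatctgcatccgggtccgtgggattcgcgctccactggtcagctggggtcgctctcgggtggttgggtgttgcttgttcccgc
The GNPDA1 window held 1 GC box and 1 E-box, and the GNPDA2 window held none of the 4 motifs. Over all 35116 windows of this length, 45% held a GC box, 34.6% a CCAAT box, 7.26% an E-box and 4.1% the seed match. Of the 14 windows of the 10 listed genes, 12 held a GC box, 6 a CCAAT box, 2 an E-box (GNPDA1 and AMDHD2) and 2 the seed match (GFPT1 and PGM3). Some genes had several windows, and by gene 9 of the 10 held a GC box and 5 a CCAAT box. No window held the seed match on the sense strand within the 50 bases after the start. That search does not count a match on the other strand or across the start. GC content was 70.0% for GNPDA1 and 61.0% for GNPDA2, against a median of 58.7% over all windows. Over the 14 windows it ran from 57.7% (OGT) to 79.3% (GNPNAT1), and the motif shares were not matched for it.

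GNPDA1 was lower with the mimic in both lines. On the deposited scale, which was read as log2, its value was 9.71 on the Li-7 control array and 6.43 on the Li-7 mimic array. In HEP-G2 it was 9.70 with the control and 7.26 with the mimic. The control values of the lines were nearly equal, both mimic values lay below both control values, and the lower of them was that of Li-7. The differences, mimic minus control, were -3.27 in Li-7, rank 6 from the lowest of 12381 genes kept, and -2.44 in HEP-G2, rank 30. Both mimic values lay under the background limit of their array, the value below which 95% of its negative controls fall, which was 7.99 for Li-7 mimic and 8.20 for HEP-G2 mimic. Set against that limit instead of the mimic value itself, GNPDA1 was at least 3.28-fold lower with the mimic in Li-7 and at least 2.82-fold lower in HEP-G2. The limits of the control arrays were higher, 8.72 for Li-7 and 8.35 for HEP-G2, and the control values stood 0.98 and 1.35 above them. These folds do not adjust for that difference between arrays.

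GNPDA2, the second glucosamine phosphate deaminase, had no common direction. Its Li-7 values were 9.14 with the control and 8.69 with the mimic, and its HEP-G2 values were 7.41 and 7.68. The differences were -0.45 and 0.27, and both HEP-G2 values lay under the background limit. AMDHD2, the deacetylase that acts one step before the deaminases on the return path, went from 7.31 to 7.11 in Li-7 and from 7.89 to 7.60 in HEP-G2. Its differences of -0.20 and -0.28 were small, and all 4 values lay under the limit of their array, so no fold is given for it.

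The synthesis enzymes were bright on every array and moved by less than 2-fold. GFPT1 went from 13.03 with the control to 13.98 with the mimic in Li-7, and from 14.75 to 15.40 in HEP-G2. It was higher with the mimic by 0.96 and 0.65, the largest positive differences among the 8 genes in each line. The mimic array was the higher of each line, but the HEP-G2 control array lay above both Li-7 arrays. GNPNAT1 hardly moved, with 12.90 and 12.85 in Li-7 and 12.85 and 13.10 in HEP-G2, differences of -0.06 and 0.24. UAP1 went from 12.00 to 11.38 in Li-7 and from 12.75 to 12.98 in HEP-G2. It was thus lower with the mimic in Li-7 (-0.62) and higher in HEP-G2 (0.23).

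Salvage and use of the product were followed through NAGK and OGT. NAGK, the kinase that returns free N-acetylglucosamine to the pathway, went from 11.99 to 12.13 in Li-7 and from 11.28 to 11.79 in HEP-G2. Its differences, 0.14 and 0.51, were positive in both lines. OGT, the O-GlcNAc transferase, went from 11.63 to 12.15 in Li-7 and from 11.58 to 11.34 in HEP-G2. It was higher with the mimic in Li-7 (0.52) and lower in HEP-G2 (-0.24). In bulk RNA, fewer cells expressing a gene and less RNA per cell cannot be told apart for any of these genes.

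**Figure D1:**
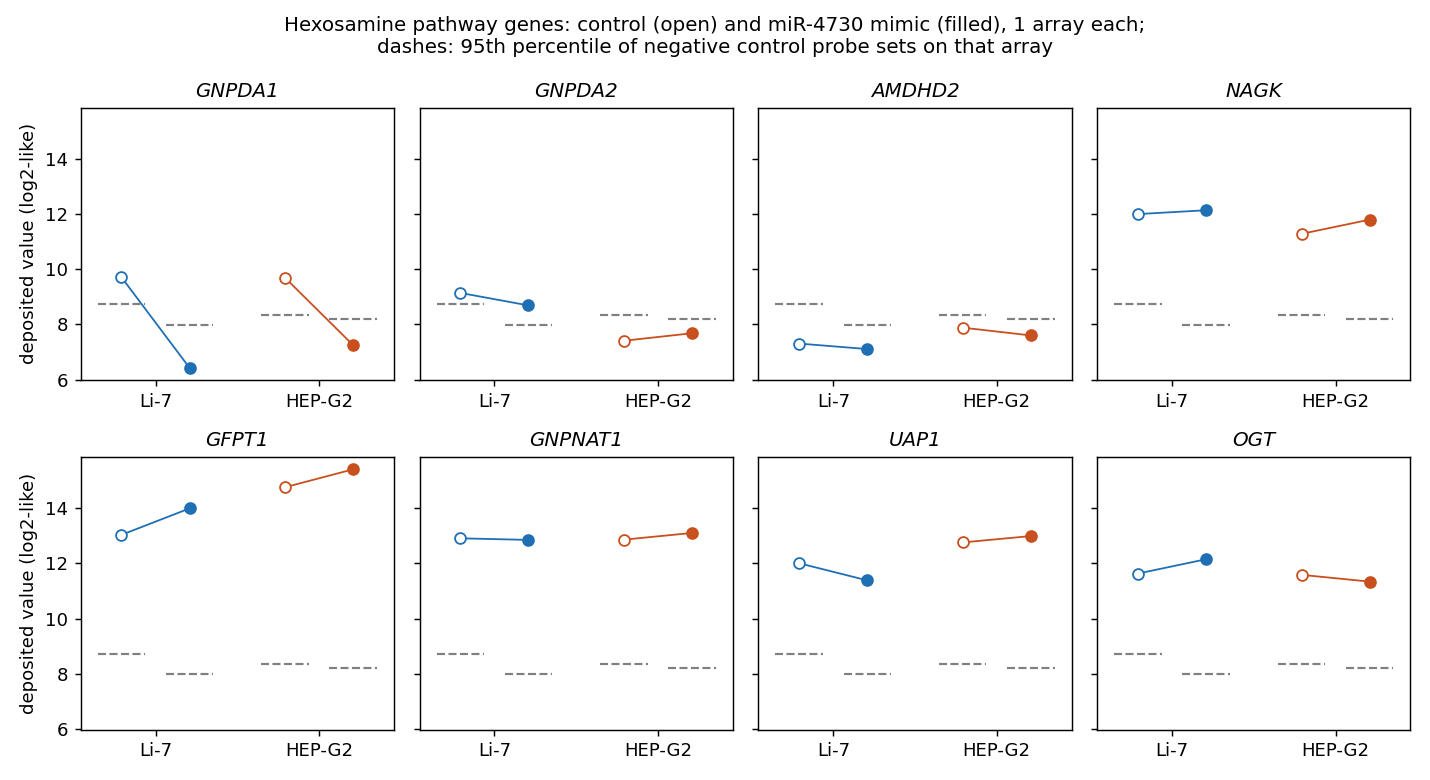
Deposited log2-like values of the 8 measured genes (y axis) on the control array (open points) and the mimic array (filled points) of Li-7 (blue) and HEP-G2 (orange), 1 array each, with dashes at the background limit of each array (95% of its negative controls lie below). GNPDA1 passes from above the dashes with the control to below them with the mimic in both lines, AMDHD2 lies below them on all 4 arrays, and GFPT1, GNPNAT1, UAP1, NAGK and OGT lie above them on all 4.

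GNPDA1 stood apart from the other 7 genes by the choice of the set. Its difference minus that of GNPDA2 was -2.82 in Li-7, and -2.71 was the same gap in HEP-G2. Against the mean of the 3 measured synthesis enzymes (0.09 in Li-7, 0.37 in HEP-G2) its gap was -3.37 and -2.81. The other 7 genes ran from -0.62 (UAP1) to 0.96 (GFPT1) in Li-7 and from -0.28 (AMDHD2) to 0.65 (GFPT1) in HEP-G2. Their medians were -0.06 and 0.24, beside medians of 0.02 over all genes kept in each line. The central 95% of all genes kept spanned -1.21 to 1.13 in Li-7 and -1.49 to 1.31 in HEP-G2, and the differences of all members but GNPDA1 lay inside. Thus 1 of 8 genes, GNPDA1, was at least 2-fold lower with the mimic, where the share over all genes kept was 4.12% in Li-7, 6.28% in HEP-G2 and 1.76% in both lines together. None of the 8 was at least 2-fold higher, where the shares were 3.72% in Li-7 and 5.77% in HEP-G2. Since these contrasts chose the set, nothing is read from those counts.

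The lines did not give the same order of responses. GNPDA2, GNPNAT1, UAP1 and OGT, 4 of the 8 genes, had opposite signs in Li-7 and HEP-G2, as had 34.9% of all genes kept. The widest gaps between the responses, HEP-G2 minus Li-7, were 0.85 for UAP1, 0.84 for GNPDA1 and -0.76 for OGT. With 1 array per group these gaps could not be tested. GNPDA1 was lower with the mimic by 0.84 more in Li-7 than in HEP-G2, but both mimic values lay in the range of the negative controls, where a size is uncertain.

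**Figure D2:**
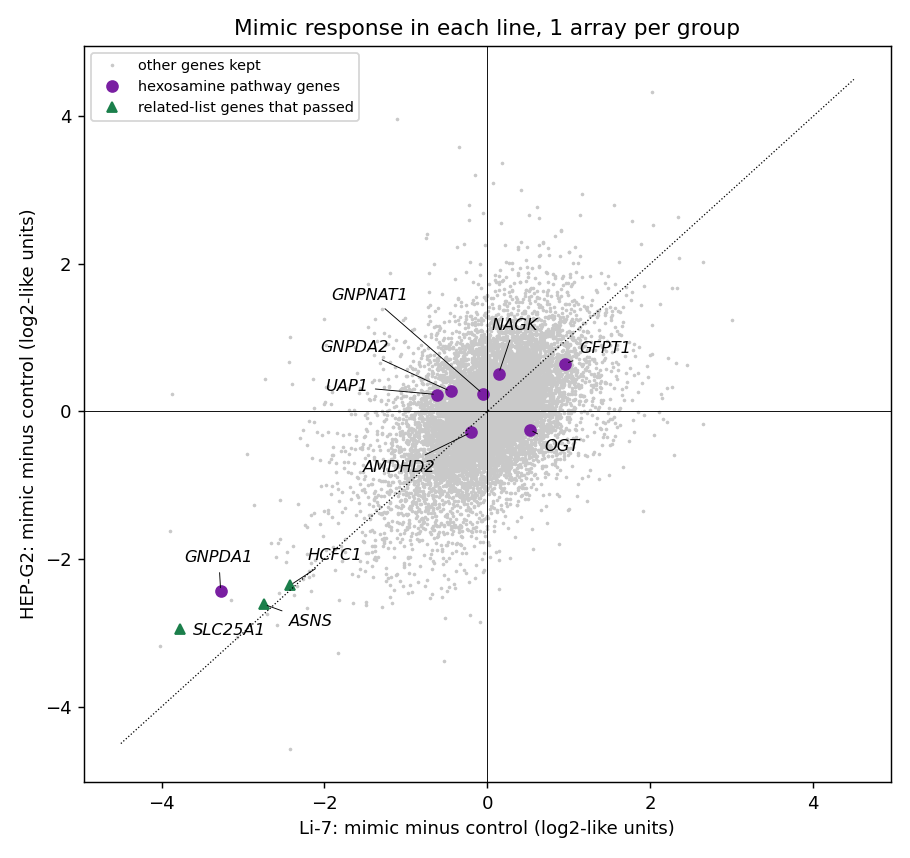
Mimic minus control in Li-7 (x axis) and HEP-G2 (y axis), in log2-like units, for 12381 genes kept (grey), the 8 hexosamine pathway genes (purple circles) and 3 genes of related pathways that fell (green triangles), with a dotted line of equal response. GNPDA1 lies at -3.27 and -2.44 near SLC25A1, ASNS and HCFC1, while the other 7 pathway genes lie within 1 unit of 0 on both axes.

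The difference between the lines played no part in choosing the set and was tested. Its standard error, however, rests in part on the gap between a gene's mimic responses in the 2 lines, and the choice used those responses. The p-values and intervals are therefore not fully independent of the choice of the set. GFPT1 and UAP1, the entry and the last enzyme of UDP-N-acetylglucosamine synthesis, were higher in HEP-G2, and GNPDA2 was lower there. GFPT1 averaged 13.51 in Li-7 and 15.07 in HEP-G2 over control and mimic, a difference of 1.57 (SE 0.25, n = 2 arrays per line), or 2.96-fold (limma with Benjamini-Hochberg adjustment, adjusted p = 0.0023). UAP1 averaged 11.69 and 12.87, a difference of 1.18 (SE 0.29), or 2.26-fold (limma adjusted p = 0.0156), and on the control arrays alone the difference was 0.75, on the mimic arrays 1.60. GNPDA2 averaged 8.92 and 7.55, a difference of -1.37 (SE 0.28, limma adjusted p = 0.00696), with -1.73 on the control arrays and -1.01 on the mimic arrays. With its HEP-G2 values raised to the background limit of the arrays, GNPDA2 was at least 1.56-fold lower in HEP-G2. For these 3 genes the arrays of the lines did not overlap.

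The remaining 5 genes did not pass. GNPDA1 differed by 0.41 (95% interval -0.28 to 1.10, limma adjusted p = 0.296), and on the control arrays alone by -0.01. GNPNAT1 differed by 0.10 (interval -0.49 to 0.69, limma adjusted p = 0.774). AMDHD2 stood 0.53 higher in HEP-G2 (interval -0.04 to 1.11) and NAGK 0.53 lower (difference -0.53, interval -1.13 to 0.07), with limma adjusted p = 0.118 and 0.135. OGT differed by -0.43 (interval -1.10 to 0.24, limma adjusted p = 0.261), most of it on the mimic arrays (-0.81, against -0.05 on the control arrays). Arrays of the lines also did not overlap for AMDHD2, NAGK and OGT, which made 6 of 8 genes, against 68.3% of all genes kept.

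In all, 3 of 8 genes (37.5%) passed for the line, 2 higher and 1 lower in HEP-G2. Of all genes kept 44.9% passed, 20.7% higher and 24.3% lower in HEP-G2, so the share is near the background. The p-values rest on a variance with 1 residual degree of freedom per gene and 5.85 prior degrees of freedom from all genes kept. The residual part is how far control and mimic arrays disagree about the line, and neither part comes from replicate cultures. Median centring moved the median line difference of all genes kept from -0.03 to 0.10, and it changed no direction or call among the 8 genes.

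**Figure D3:**
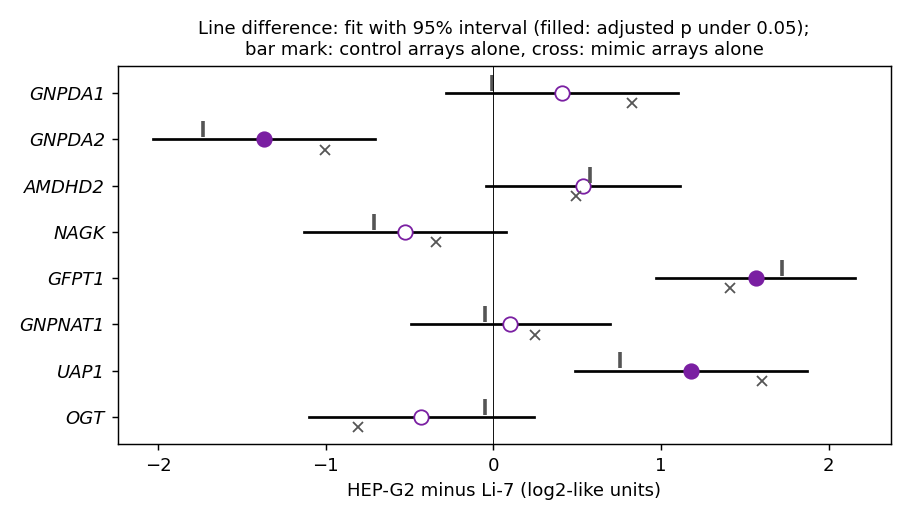
HEP-G2 minus Li-7 (x axis, log2-like units) for each of the 8 genes, with the 95% interval of the fit, filled where the adjusted p was under 0.05, and with the difference on the control arrays alone (bar mark) and on the mimic arrays alone (cross). GFPT1 (1.57) and UAP1 (1.18) lie to the right of 0 and GNPDA2 (-1.37) to the left, while the intervals of the other 5 genes include 0.

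Genes that supply the pathway, use its product or break it down were gathered in 14 lists with 163 genes, of which 130 were measured and kept. These lists, too, were drawn up with earlier results of these data known. In the fit of the deposited values for the mimic over both lines, 3 of the 130 fell and 0 rose. That was 2.31% called, against 0.42% of all genes kept, with 0.339% lower and 0.0808% higher. Without adjustment, limma's p was under 0.05 for 17 lower genes (13.1%) and 14 higher genes (10.8%), against 9.71% and 9.75% of all genes kept. Together the 130 genes had a median of -0.04, beside 0.03 for all genes kept. The genes that fell were HCFC1, ASNS and SLC25A1, and each passed under all 9 other settings tried. Of all genes that passed, 80.8% fell, and after quantile normalization 58.7% of a larger number did. Of the related genes, 7 fell and 2 rose after quantile normalization.

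HCFC1, a chromatin coregulator that OGT both glycosylates and cleaves, was the closest to the pathway. It went from 11.21 with the control to 8.78 with the mimic in Li-7, and from 11.15 to 8.79 in HEP-G2. The values of the lines nearly coincided, all 4 lay above the background limit, and the mean change was -2.39 (SE 0.24, limma adjusted p = 0.0266), or 5.24-fold. The other members of its list of 4, on O-GlcNAc cycling and partners, were higher in both lines without passing, which gave a list median of 0.44. OGA, the enzyme that removes O-GlcNAc, went from 9.12 to 9.66 and from 8.83 to 9.32, and EOGT, an O-GlcNAc transferase of the endoplasmic reticulum, was at 0.57 and 0.52.

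ASNS, asparagine synthetase, takes nitrogen from glutamine as GFPT1 does. It went from 10.59 to 7.85 in Li-7 and from 13.32 to 10.71 in HEP-G2, and fell by 2.68 on the log2-like scale (SE 0.24, limma adjusted p = 0.0241). The Li-7 mimic value lay under the background limit, which makes the Li-7 change at least 6.06-fold. The 9 other amidotransferases kept, which include CPS1, a relative that uses ammonia, had a median of -0.42, with ASNS the 1 that passed. PFAS, of purine synthesis, was at -1.03 and -1.28, and CAD, of pyrimidine synthesis, at -0.30 and -1.19. Of 6 genes of glutamine handling 0 passed and the median was -0.18. SLC1A5, the main glutamine importer, was at -1.24 and -1.54 (limma adjusted p = 0.0738), SLC7A5 at -1.29 and -0.21, and SLC38A1 at -0.54 and -0.65.

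SLC25A1, the mitochondrial citrate carrier, exports the citrate from which cytosolic acetyl-CoA is made. It went from 10.22 to 6.45 in Li-7 and from 11.41 to 8.45 in HEP-G2. It fell by 3.36 on average (SE 0.29, limma adjusted p = 0.0241), and by at least 4.68-fold in Li-7, where the mimic value lay under the background limit. SLC25A1 was the 1 of 8 genes of UTP and acetyl-CoA supply that passed, and the list median was 0.08. ACSS2, which makes acetyl-CoA from acetate and lay under the background limit on both Li-7 arrays, was at 0.54 and 1.94, and DHODH, of pyrimidine synthesis, at -0.46 and -0.81.

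Upstream of the entry step, 0 of 16 genes of fructose phosphate supply and use passed, and their median was 0.05. PFKP, a phosphofructokinase, was at 0.98 and 0.94, HK1, a hexokinase, at 0.66 and 1.42, and PFKFB1 at 1.21 and 1.40. HK1 lay under the background limit on both HEP-G2 arrays and PFKFB1 on all 4 arrays, so the sizes of those differences are uncertain. Among 5 transcription factors named for control of hexosamine genes 0 passed, and 3 had opposite signs in the lines. Their median was -0.51 for the mean over the lines, but 0.07 in Li-7 and -0.18 in HEP-G2. ATF4 was at -1.001 and -1.39, XBP1 at -0.84 and -0.18, and MYC at 0.12 and -1.36.

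In the 7 lists of glycan, GPI anchor, sialic acid, nucleotide sugar and polymerase genes and the lysosomal list, no gene passed in the fit of the deposited values. Among 12 genes of N-glycan branching (median 0.15), MGAT5, which builds the branch that extends complex N-glycans, went from 10.14 to 8.09 in Li-7 and from 12.05 to 10.52 in HEP-G2. Its mean change of -1.79 (SE 0.26) missed the threshold (limma adjusted p = 0.0557). MGAT5 passed under 4 of the 9 other settings, those in which at least 366 of all genes passed, against 52 as deposited. In the same list MAN2A1 was at 0.41 and 1.14, and MAN2A2, whose control values lay under the background limit, at 0.26 and 1.08 (at least 0.72 in HEP-G2). Among 12 genes of N-glycan assembly on dolichol (median -0.19) ALG10 was at -0.46 and -1.35, ALG8 at -0.63 and -0.24 and ALG6 at -0.48 and -0.37. The HEP-G2 mimic value of ALG10 lay under the background limit, so that it was at least 2.21-fold lower there, and ALG6 lay under it on 3 arrays. The 8 genes of the first GPI anchor steps had a median of -0.42. DPM2 was at -1.50 and -0.63, DPM1 at -0.97 and -0.99, and PIGA at -0.26 and -0.997.

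Glycosaminoglycan polymerases, mucin-type glycan enzymes and the sialic acid list held values of both signs, and 0 of their genes passed. Among 10 polymerase genes (median 0.0021), CSGALNACT2, which starts chondroitin chains, was at 1.28 and 1.52 (limma adjusted p = 0.0737). It passed under the same 4 of the 9 other settings as MGAT5. The Li-7 control value of CSGALNACT2 lay under the background limit, so that it was at least 1.56-fold higher in Li-7. CSGALNACT1 was at 0.49 and 1.23, under the background limit on all 4 arrays, and HAS2, a hyaluronan synthase, at -1.68 in Li-7 and, from values under that limit, at -0.50 in HEP-G2. The 10 mucin-type genes had a median of 0.40, with GALNT2 at 1.44 and 0.73, GALNT10 at 0.09 and 1.86 and GCNT3 at -0.17 and 1.76. The HEP-G2 control value of GALNT10 lay under the background limit, so that it was at least 1.92-fold higher there. The 5 sialic acid genes had a median of -0.17, with CMAS at -0.79 and -0.0034, SLC35A1, under the background limit on both Li-7 arrays, at 0.07 and -0.58 and NANP at 0.16 and 0.28.

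Nucleotide sugar genes (14, median 0.08) and lysosomal amino sugar genes (11, median 0.06) lay close to the median of all genes. In the former SLC35D2, a nucleotide sugar transporter, was at 1.35 and 0.48, UXS1 at 0.83 and 0.85 and UGP2 at -0.04 and 1.31. In the latter GNPTAB, which starts the lysosomal sorting tag, was at -0.84 and -0.74, MANBA at 0.62 and 0.87 and FUCA1 at 0.46 and 0.80. GNPTAB lay under the background limit on the HEP-G2 mimic array (at least 1.65-fold lower there) and FUCA1 on the Li-7 control array.

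**Figure D4:**
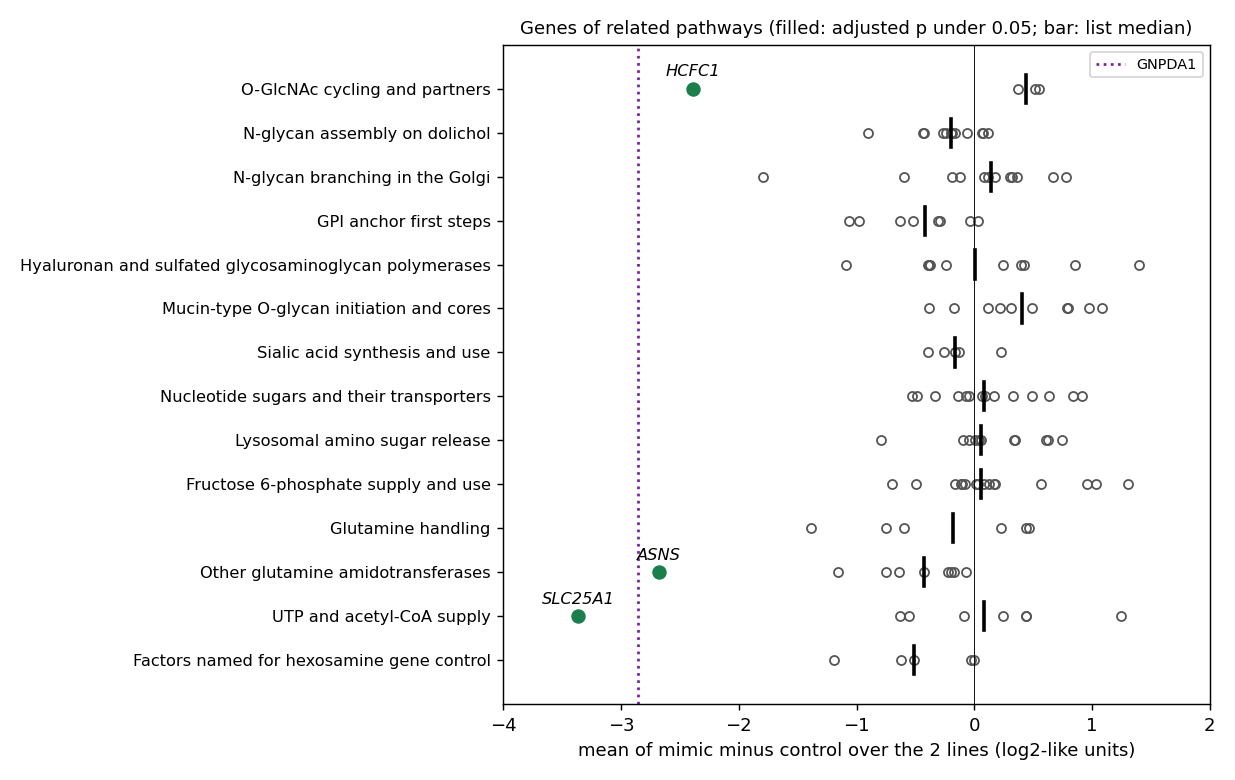
Mean of mimic minus control over the lines (x axis, log2-like units) for each gene kept of the 14 related lists (rows), filled where the adjusted p was under 0.05, with a bar at each list median and a dotted line at GNPDA1 (-2.86). HCFC1, ASNS and SLC25A1 are the filled points, all below -2, and list medians run from -0.51 to 0.44.

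The genes whose pattern over the 4 arrays was most like that of GNPDA1 were sought among the other 12380 genes kept, by the Euclidean distance of values centred on each gene's mean. NPRL3, a subunit of a nutrient-sensing complex upstream of mTORC1, was the nearest (distance 0.64), with differences of -2.65 and -1.79. It was followed by BCKDK, the kinase that inhibits breakdown of branched-chain amino acids (0.65), NUFIP1 (0.67), RNF10 (0.68) and the nuclear pore gene POM121 (0.71), whose near-identical copy POM121C may share probes. NPRL3 lay under the background limit on all 4 arrays, BCKDK on both mimic arrays and NUFIP1 on 3 arrays, while RNF10 and POM121 lay above it on all. In all, 19 genes lay within a distance of 1. Distances over 4 arrays are a description and carry no test.

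The genes beside GNPDA1 on chromosome 5 did not pass for the mimic. In the order of the RefSeq table, the nearest 3 genes kept on either side were PCDH1, DELE1 and RNF14, and NDFIP1, SPRY4 and FGF1. RNF14, next to GNPDA1 on the one side, was at -0.18 and 0.18, and NDFIP1, next on the other, at 0.27 and 0.45. DELE1, under the background limit on the Li-7 control array, was at -0.12 and -0.07, SPRY4 at 0.21 and 0.80, and FGF1, under the background limit on all 4 arrays, at 0.17 and 0.16. PCDH1 went from 10.15 to 8.69 in Li-7 and from 5.43 to 7.15 in HEP-G2, where both values lay under that limit. Limma's adjusted p over the 6 genes ran from 0.352 to 1.

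Over the whole array, medians lay between 7.03 and 7.17, and the number of the 8 pathway genes under the background limit was 1 for the Li-7 control, 2 for the Li-7 mimic, 2 for the HEP-G2 control and 3 for the HEP-G2 mimic. HMGA1, the target named by the study, was rank 1 from the lowest in Li-7 and rank 4 in HEP-G2. Of 9 measured hepatocyte markers, all lay above the limit on both HEP-G2 arrays, 0 on the Li-7 control array and 2 (APOH and SERPINA1) on the Li-7 mimic array, so the Li-7 control array showed none of these defining markers above background. That limit was 8.72 on the Li-7 control array and 7.99 on the Li-7 mimic array, and the APOH control value, 8.31, lay between. Among 12 markers of blood, endothelial and stromal cells, 9 lay under the limit on all 4 arrays, PTPRC, CD3E, PECAM1, CDH5 and COL1A1 among them, CD68 and COL1A2 above it on all, and ACTA2 above it in HEP-G2 alone. The number of arrays limits the precision of every value.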

How the data were processed

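The deposited table holds summarised log2-like values of 24351 probe sets on 4 Affymetrix arrays, which the authors made with Affymetrix Expression Console and Transcriptome Analysis Console per the submitters' processing notes. No source used here gives the normalization, log base or genome build, and log2 was read from the range (1.48 to 18.3). The platform annotation gave 17709 probe sets 1 gene, and all matched RefSeq (GRCh38.p14) by Entrez ID. The brightest probe set stood for a gene (20 genes had several), and genes whose mean reached the 30th percentile (4.90) were kept, all 8 measured members among them.

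An additive model of line and treatment was fitted over 12381 genes in R 4.3.3 with limma 3.58.1 (lmFit, eBayes, 1 residual and 5.85 prior degrees of freedom), with Benjamini-Hochberg adjustment at 0.05. Its p-values rest on the disagreement between arrays for a gene, weighed with a prior variance from all genes kept, not on replicate cultures. The background limit of an array was the 95th percentile of its 612 negative controls. "At least" folds use that limit in place of the dimmer value, and do not adjust for limits that differ between arrays.

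Members and lists were chosen with earlier results of these data known. Named genes were the members, HMGA1, the 3 largest mean changes and every call of each list, the 5 nearest profiles and the 3 neighbours on each side. Alternatives covered normalization, filter, probe-set averaging, eBayes options, the fold limit and single-treatment line differences. Sequences are RefSeq's, and no protein or transcript sequences were used here.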

Additional observations from a re-analysis of the deposited data

Results flagged for a closer look

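Named genes with opposite signs in the lines drew attention, 10 in all and 4 of them pathway members. With 1 array per group this difference was not tested. Given as the response in HEP-G2 minus that in Li-7, it was 0.72 for GNPDA2 (0.27 against -0.45), 0.30 for GNPNAT1 (0.24 against -0.06), 0.85 for UAP1 (0.23 against -0.62) and -0.76 for OGT (-0.24 against 0.52). Among the related genes it was 1.93 for GCNT3, -0.66 for SLC35A1, 1.35 for UGP2 and -1.49 for MYC. Among the chromosome neighbours of GNPDA1 it was 3.19 for PCDH1, whose HEP-G2 values both lay under the background limit, and 0.36 for RNF14. Opposite signs occurred in 34.9% of all genes kept. Most related genes were named for a large mean change over the lines, so their count is not comparable with that share.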

How the results depend on the processing

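All 64 recomputed differences of the 8 members within a line moved by less than the residual SD of the gene, over quantile normalization, median centring, cyclic loess and probe-set averaging. GNPDA1 minus GNPDA2 stayed between -2.78 and -2.77, and 4 members kept opposite signs. In the 8 or 9 fits per member, each line call kept its direction and its side of the threshold, but GNPDA1, GNPDA2 and AMDHD2 were not among the genes left by the filter at the background limit. On control arrays alone and mimic arrays alone, the line difference was -0.01 and 0.83 for GNPDA1, -1.73 and -1.01 for GNPDA2, 0.75 and 1.60 for UAP1 and -0.05 and -0.81 for OGT. The fit already compares mimic with control within each line.

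Counts over all genes were less stable, and the cause was not tested. For the mimic 52 genes passed as deposited, 465 after quantile normalization, 23 after cyclic loess, 366 with the filter at the median gene, 582 with the filter at the background limit and 411 with an intensity trend. Of the related genes 3 passed as deposited, and in the same order, cyclic loess aside, 9, 8, 12 and 10 did. Those that rose were 0 as deposited and then 2, 1, 3 and 2. HCFC1, ASNS and SLC25A1 passed in all settings, with limma adjusted p values up to 0.0436. ATF4, CSGALNACT2, MGAT5, PFAS and SLC1A5 passed in 4 of 9. For the line 5563 genes passed, and 3687 with the filter at the background limit, which tested 6948 genes. At 1.5-fold, 1520 genes were lower and 1592 higher in Li-7 and 2003 lower and 2029 higher in HEP-G2, against 510, 461, 777 and 714 at 2-fold. Signals near the negative controls limit the sizes given for GNPDA1, GNPDA2 and AMDHD2.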
